A study of Homo sapiens with 6 samples.

Results

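Short retained introns are taken here as the retained intron (RI) events in which the intron is at most 150 nt long, measured from the end of the upstream exon to the start of the downstream exon, and which hold a mean of at least 10 junction reads over the 6 libraries. The rule found 913 introns in 672 genes, among 2591 RI events with as many reads and 3287 RI events listed. They lie at 913 distinct positions and are 26 to 150 nt long, with a median of 92 nt. Without the limit on reads, 1090 listed introns are this short. NCI-H1975, an established human lung adenocarcinoma (LUAD) cell line, had been transfected with a SAM68 expression plasmid (PCDNA3.1-SAM68) or with the PCDNA3.1 plasmid alone as control, each at 2 µg per well for 48 h. RNA was sequenced from 3 libraries per group, which the study describes as biological replicates, and splicing events were listed with rMATS. The model is transient overexpression in a single line. The libraries are called control 1 to 3 and SAM68 1 to 3 by their place in the deposited lists, which carry no replicate numbers.

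An intron is retained when it stays in the mature RNA together with the exons on both sides. Short introns are often paired across the intron itself by the splicing machinery, they tend to be rich in G and C, and some can be translated through when they stay in. SAM68, the product of KHDRBS1, is an RNA-binding protein of the STAR family that binds U- and A-rich motifs such as UAAA and takes part in the choice of splice sites. The percent spliced in (PSI) of an RI event is the share of the retained form, corrected for the length over which each form collects junction reads. A PSI of 0% means that every read was spliced, and a PSI of 100% that none was.

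The sequences of 12 introns that the results turn on were read from hg38 on the transcript strand and are written as DNA, 5′ to 3′, with the dinucleotides at both ends in capitals. The first pair shows the shortest intron of all (XBP1, whose ends as listed are not a usual pair and carry no capitals) and the shortest with GT and AG ends that is read in every library of both groups and lies in the canonical transcript (HNRNPH1).
XBP1, chr22:28796122-28796147, minus strand: ctcagactacgtgcacctctgcagca
HNRNPH1, chr5:179617933-179617988, minus strand: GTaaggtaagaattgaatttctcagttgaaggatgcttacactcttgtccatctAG

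The next 6 are the intron with the most reads (EEF1A1) and 5 with low p-values for SAM68 against control.
EEF1A1, chr6:73518265-73518353, minus strand: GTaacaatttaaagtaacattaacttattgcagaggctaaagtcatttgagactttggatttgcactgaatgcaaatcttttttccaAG
RPS21, chr20:62388365-62388456, plus strand: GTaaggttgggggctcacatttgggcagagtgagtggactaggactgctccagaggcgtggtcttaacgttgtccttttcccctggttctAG
PDCD2L, chr19:34404816-34404929, plus strand: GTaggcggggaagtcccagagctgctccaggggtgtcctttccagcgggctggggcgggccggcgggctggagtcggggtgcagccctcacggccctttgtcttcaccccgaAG
HNRNPL, chr19:38840377-38840487, minus strand: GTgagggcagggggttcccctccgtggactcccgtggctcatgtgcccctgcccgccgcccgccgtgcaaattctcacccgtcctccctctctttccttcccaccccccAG
JMJD8, chr16:683442-683529, minus strand: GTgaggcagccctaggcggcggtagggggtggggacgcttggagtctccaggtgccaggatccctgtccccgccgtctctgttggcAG
TMEM208, chr16:67228837-67228975, plus strand: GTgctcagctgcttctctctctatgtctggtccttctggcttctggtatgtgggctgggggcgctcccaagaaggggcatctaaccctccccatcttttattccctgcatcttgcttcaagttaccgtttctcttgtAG

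The introns of ZDHHC5 and EDC4 are the 2 whose 5′ splice site has the motif of the minor (U12-type) spliceosome, and here the capitals mark that motif and the last dinucleotide.
ZDHHC5, chr11:57690204-57690334, plus strand: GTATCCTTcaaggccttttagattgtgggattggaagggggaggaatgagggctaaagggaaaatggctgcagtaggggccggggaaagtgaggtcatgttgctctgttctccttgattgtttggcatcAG
EDC4, chr16:67881846-67881953, plus strand: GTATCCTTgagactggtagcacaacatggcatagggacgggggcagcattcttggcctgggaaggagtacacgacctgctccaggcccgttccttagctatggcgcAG

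The introns of CTNNB1 and HNRNPM lie within coding exons of the canonical transcripts in GENCODE 44, and both keep the reading frame with no stop codon when they stay in.
CTNNB1, chr3:41224992-41225102, plus strand: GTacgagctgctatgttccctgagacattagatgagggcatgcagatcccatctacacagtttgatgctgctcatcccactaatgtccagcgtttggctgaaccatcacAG
HNRNPM, chr19:8465363-8465479, plus strand: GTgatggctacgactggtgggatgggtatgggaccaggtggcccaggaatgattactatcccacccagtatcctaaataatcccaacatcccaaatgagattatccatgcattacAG

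The overexpressed gene was checked first, from junction reads of its deepest skipped exon event scaled to the total of such reads (rpm, with the total set to 1000000). KHDRBS1 stood at 318, 336 and 323 rpm in control and at 1260, 1289 and 1307 rpm with SAM68. The groups did not overlap, and the log2 fold change was 1.98 (SE 0.048, limma, adjusted p = 9.68e-23 over 9872 genes). In RNA of whole cultures, more cells with the plasmid and more RNA per cell cannot be told apart. KHDRBS1 has 0 RI events. The RI events held 1418648 to 1677447 junction reads per library, of which the short introns took 518680 to 612757, with SAM68 2 and SAM68 3 the shallowest libraries. Of 9 epithelial markers, KRT8 (235 to 531 rpm) and MUC1 (0.163 to 2.82 rpm) had skipped exon events, and their summed level was 244 to 533 rpm in the controls and 235 to 256 rpm with SAM68. Of 6 markers of other cell types only CD68 had one, at 94.0 to 104 rpm in the controls and 100 to 106 rpm with SAM68, and the other 5 had none to read.

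Most short introns were almost wholly spliced out and a small group was almost wholly kept. The mean PSI over the 6 libraries was under 1% for 442 introns and from 1% to 5% for 258. It was over 50% for 107 introns, 62 of them at 90% or more. Only 47 introns lay between 10% and 50%. The median was 1.08%, with quartiles of 0.309% and 4.21%.

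The level of retention divided with the annotation of the spliced form. The canonical transcript of the gene has 757 of these introns (82.9%), another transcript alone has 146, and 10 are not annotated as introns. The canonical introns had a median PSI of 0.762%, and 4 of them were over 50%. The introns of other transcripts had a median PSI of 75%, and 93 were over 50%. The mean PSI of all 10 introns without an annotation came out over 50%, but that of B2M rests on single reads in 2 libraries and is no usable level. For 76 of the 156 introns that are not canonical, the whole stretch lies within an exon of the canonical transcript, so that the form counted as retained is the canonical one. Their median PSI was 94.6%, and 65 were over 50%. The counts over 50% here and above include B2M.

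**Figure D1:**
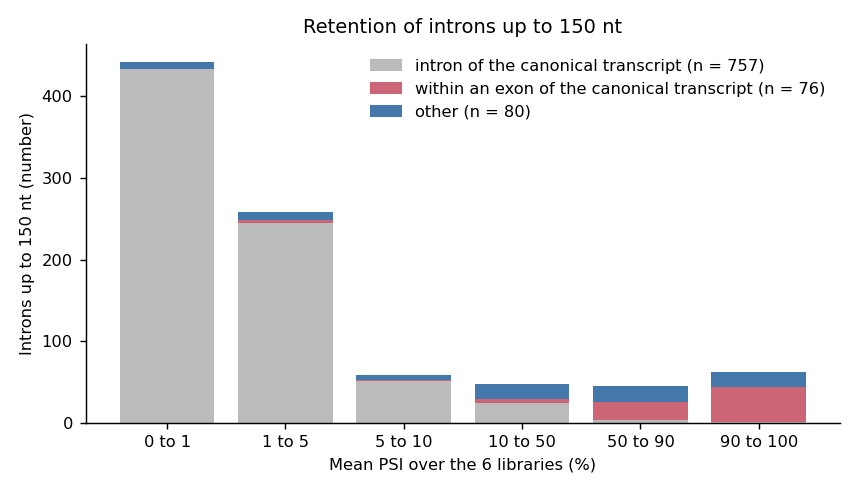
Number of introns up to 150 nt (y axis) in 6 bins of mean PSI over the 6 libraries in percent (x axis), stacked by the place of the intron in the canonical transcript. Of the 757 canonical introns (grey), 433 lie under 1%, while 43 of the 76 introns within an exon of the canonical transcript (red) lie at 90% or more.

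The short introns lay within a wholly coding exon of the canonical transcript in 57 cases (6.24%). The same held for 21 of 979 RI events over 150 and up to 500 nt (2.15%) and for 6 of 699 over 500 nt (0.858%). Of the 107 short introns with a PSI over 50%, 49 (45.8%) were of this kind and 16 (15.0%) lay in an exon that is not wholly coding. Another 38 were other introns that are not canonical, and 4 were canonical introns, in AL162258.1, MRPL52, STAG3L5P-PVRIG2P-PILRB and XBP1. These shares describe how the events were annotated, and no test was made of them.

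Among introns with 50 reads or more on average, the highest PSI was seen in DBN1 (drebrin, an actin-binding protein), CTNNB1 (β-catenin of adherens junctions and Wnt signalling), PIEZO1 (a mechanically gated ion channel), RPL38 (large ribosomal subunit), DEPDC1 (a DEP domain protein) and PHC1 (a Polycomb protein). In CTNNB1, 229, 235 and 241 retained reads were counted in control and 278, 176 and 207 with SAM68, against 1 spliced read in control 2 and 0 in the others. Its PSI was therefore 99.2% in control 2 and 100% in the other 5 libraries. The group means of all 6 introns were at 99.3% or above, with 1 to 4 spliced reads over the 6 libraries each. Those of CTNNB1, PIEZO1, DEPDC1 and PHC1 lie within coding exons of the canonical transcripts, that of RPL38 lies in the 5′UTR of another transcript, and that of DBN1 is not annotated as an intron.

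The shortest introns were not alike. XBP1 encodes a transcription factor of the unfolded protein response whose RNA is known to lose 26 nt outside the spliceosome, through the endonuclease IRE1, with a change of reading frame. The listed intron is the annotated intron 4 of 5 of the canonical transcript moved by 6 nt, since the flanking bases repeat. Its PSI was 94.5%, 97.7% and 97.7% in the controls and 98.0%, 100% and 98.5% with SAM68, from 6, 2 and 2 spliced reads against 2, 0 and 1. The groups did not overlap, but the difference of 2.15 points had an interval of −1.33 to 5.67 points (quasi-binomial test, adjusted p = 0.676). Without control 1 the difference was 1.10 points. Intervals of a difference are given at 95% and include the spread between libraries.

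B2M, which encodes the β2-microglobulin of MHC class I, had an intron of 52 nt read in 3 libraries only. PSI was 100% from 1 read in control 1, 1.03% from 70 reads in control 2 and 100% from 1 read in SAM68 1, so that no level can be given for it. SNHG5, a noncoding host gene of snoRNAs, had an intron of 54 nt at 39.6%, 48.3% and 49.1% in the controls and 89.1%, 60.6% and 38.7% with SAM68, and the groups overlapped. HNRNPH1, a splicing factor, had its intron 7 of 13 (56 nt) at 0.280% to 1.18% in the controls and 0.319% to 0.630% with SAM68.

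Both U12-type introns were efficiently spliced. In ZDHHC5, a palmitoyltransferase gene, intron 5 of 11 was at 0.351%, 2.11% and 0.625% in the controls and 0.610%, 0.398% and 0.315% with SAM68. In EDC4, a scaffold of mRNA decapping, intron 22 of 28 had 1 retained read, in SAM68 1. The 309 control reads without a retained read allow retained reads to make up as much as 0.971% of reads. Limits of this kind put 3 reads in place of 0, are shares of reads without the correction for length that PSI has, and cover counting error only.

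The most read introns were spliced almost to completion. EEF1A1 encodes the factor that brings aminoacyl-tRNA to the ribosome. Its intron 6 of 7 had a mean of 66229 reads per library, of which 13, 4 and 1 were retained in the controls and 5, 4 and 2 with SAM68. PSI was at most 0.0123%, and the groups overlapped. In intron 3 of the same gene 1 retained read was found, in control 2, and the 177567 SAM68 reads with none allow up to 0.00169%.

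GAPDH, the glycolytic enzyme, had intron 4 of 8 at 0.0750%, 0.0486% and 0.0672% in the controls and at 0.0506%, 0.0350% and 0.0214% with SAM68. The groups overlapped, and the difference did not pass the test (quasi-binomial, adjusted p = 0.532). RPS16, RPS2 and RPS18 of the small ribosomal subunit had means of 0.147% and 0.132%, 0.00123% and 0.00129%, and 0.0344% and 0.0540% in control and SAM68. ACTB (β-actin) had no retained read among 45503 control reads, which allows up to 0.00659%, and 1 in the SAM68 libraries.

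Across the 913 introns the Spearman correlation between PSI and mean reads was −0.557. It was 0.0467 with length, −0.0165 with GC content, −0.130 with the agreement of the 5′ splice site with its consensus and −0.150 with that of the 3′ splice site. Within the 757 canonical introns the values were −0.541 for reads, −0.0697 for length, 0.104 for GC content, −0.0414 for the 5′ and −0.0768 for the 3′ splice site. For the 156 introns that are not canonical the correlation with reads had the opposite sign, 0.315. The introns share libraries and often a gene, an event is listed only when both forms are found, and reads enter both PSI and the mean, so these values are descriptions.

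In sequence, 899 introns (98.5%) had GT-AG ends and 13 (1.42%) had GC-AG ends. The GC-AG introns had a median PSI of 10.8%. The GC content was 62.0% in the median, against 56.6% for RI events over 150 and up to 500 nt and 48.2% for those over 500 nt. The 5′ splice sites scored 7.77 in the median against 7.23 and 7.45, and the 3′ splice sites 6.85 against 7.34 and 8.43, on a log2 scale of agreement with the consensus of the flanking exons in the skipped exon events. Canonical short introns had a median 5′ score of 7.92, and those within an exon of the canonical transcript had 5.68, with a GC content of 53.3%. Chromosome 19 held 153 of the short introns (16.8%) and 12% of all tested RI events.

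The motifs UAAA, UUAA and UAGG were searched on the transcript strand, overlapping matches included. UAAA was found in 13.1% of the short introns, UUAA in 13.3% and UAGG in 22.9%. In the first 75 nt, over the 817 short introns that are this long, the shares were 11.4%, 11.1% and 21.4%. RI events over 150 and up to 500 nt had 16.9%, 13% and 22.4% in the same window, and those over 500 nt had 23.9%, 26% and 21.5%.

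The introns were mostly coding. Of the 913, 827 (90.6%) lie in the coding part of their transcript, 28 in the 5′UTR, 17 in the 3′UTR and 31 in noncoding transcripts. Where the reading frame could be followed, 103 (12.8%) kept it with no stop codon, 215 (26.7%) shifted it with no stop in the intron, and 487 (60.5%) had a stop in the intron. For RI events over 150 and up to 500 nt the share that kept the frame was 4.37%, and for those over 500 nt it was 0.688%. A stop lay in 89.7% and 99.0% of these. Longer introns hold more codons in which a stop can fall, so this order follows at least in part from the length classes themselves. The median PSI was 1.97% where the frame was kept, 0.940% where it was shifted and 0.730% with a stop. Among canonical introns alone these medians were 0.818%, 0.848% and 0.660%. Of the 32 introns within an exon of the canonical transcript whose frame could be followed, 22 (68.8%) kept it, with a median PSI of 86.1%.

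Among the frame-keeping introns with a PSI over 10% the most read were in RPL8, HNRNPL, HNRNPM and FXR1. HNRNPM encodes an hnRNP that binds G- and U-rich RNA. Its intron of 117 nt, a part of a coding exon of the canonical transcript, was at 41.3%, 42.1% and 39.6% in the controls and 41.4%, 44.5% and 39.7% with SAM68. The groups overlapped, and the interval of the difference was −2.19 to 3.78 points. FXR1 encodes an RNA-binding relative of the fragile X protein. Its intron 12 of 16 (87 nt) was at 15.0%, 14.1% and 9.83% in the controls and 14.5%, 10.6% and 13.8% with SAM68, with an interval of −2.84 to 2.87 points.

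Compared with longer introns, the short ones had a lower median PSI within every library. Against RI events over 150 and up to 500 nt the difference between the medians was −0.160 ± 0.118 points (SD over the 6 libraries, lower in 6 of 6, exact sign-flip permutation test, two-sided, p = 0.031, the smallest possible). Against RI events over 500 nt it was −0.178 ± 0.0680 points (lower in 6 of 6, exact sign-flip permutation test, p = 0.031). Among canonical introns alone, a comparison added after the data were seen, the differences were 0.0566 points (lower in 2 of 6 libraries) and 0.0306 points (lower in 3 of 6). With a mean of at least 50 reads they were 0.00921 and 0.00104 points, so that the order held neither among canonical nor among well-read introns.

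SAM68 overexpression was then compared with control. Over the 910 introns read in all 6 libraries, the median PSI was 0.984%, 0.919% and 0.894% in the controls and 0.803%, 0.629% and 0.788% with SAM68. All SAM68 libraries lay below all controls, with means of 0.932% ± 0.0465 and 0.740% ± 0.0962 (SD, n = 3, exact two-sided permutation of the libraries, p = 0.1, below which 3 against 3 cannot go). RI events over 500 nt showed the same order, with means of 1.15% and 0.875%. Those over 150 and up to 500 nt overlapped, with means of 1.08% ± 0.0824 and 0.910% ± 0.111 (exact permutation test, p = 0.2), and over the 2581 RI events of any length read in all 6 libraries the means were 1.02% and 0.833%. The mean PSI of the short introns, in place of the median, overlapped, at 12.6% ± 0.0314 in control and 12.6% ± 0.180 with SAM68 (exact permutation test, p = 0.9).

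The lower medians went with more introns without a single retained read. This share was 24.8%, 25.2% and 24.4% in the controls and 27.4%, 31.9% and 29.4% with SAM68. SAM68 2 and SAM68 3 were also the shallowest, with a median of 109 and 108 reads per intron against 118, 124 and 120 in the controls. SAM68 1 was the deepest library, at 129 reads. Its share of 27.4% and its median PSI of 0.803% both lay outside the range of the controls. Over the 442 introns with at least 100 reads in each library, a set added after the data were seen, the medians were 0.423%, 0.428% and 0.458% in control and 0.443%, 0.309% and 0.390% with SAM68. There the groups overlapped and the difference was −0.0557 points (exact permutation test, p = 0.3). The part of depth in the difference was not tested.

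**Figure D2:**
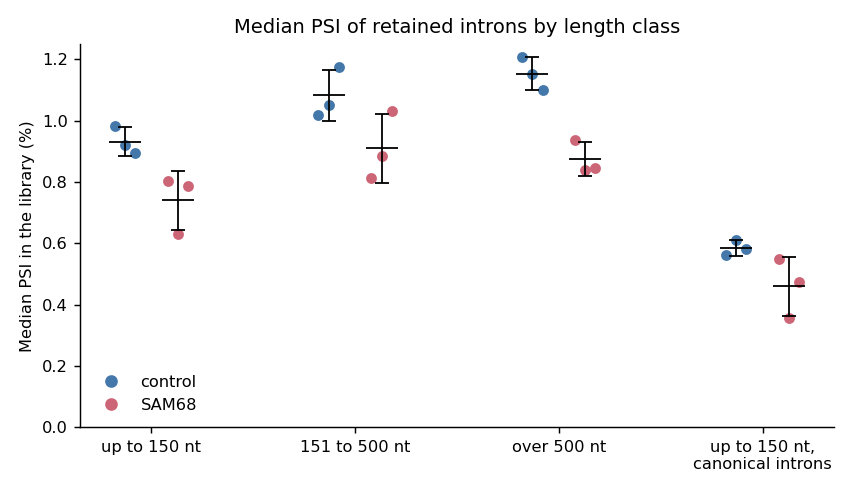
Median PSI in percent (y axis) in each library for 3 length classes of RI events and for the canonical introns up to 150 nt (x axis). Points are libraries and bars are the mean with SD over 3 libraries, and the SAM68 libraries of introns up to 150 nt sit at 0.629% to 0.803%, below the controls at 0.894% to 0.984%.

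No single short intron was called. A call needed an adjusted p under 0.05 over all 2591 RI events and a difference of at least 10 points, which 0 of 913 short introns and 1 of the 2591 RI events (0.0386%) met in the quasi-binomial test. With no limit on the difference, 0 short introns and 2 of all RI events (0.0772%) had an adjusted p under 0.05. A likelihood ratio test on the reads pooled per group, which ignores the spread between libraries, called 6 short introns and 0.965% of all RI events. At an unadjusted p under 0.05, 72 short introns were found (7.89%), against 9.15% of all RI events. Of these, 46 were lower with SAM68 (5.79% of all RI events were) and 26 higher (3.36% of all). The groups did not overlap, with SAM68 lower, in 50 short introns (5.48%, against 5.25% of all RI events), and with SAM68 higher in 31 (3.40%, against 3.05%). The shares among the short introns were near those of the background. The count of 72 was not stable, since it was 29 to 39 with any 1 library left out and 20 with each intron's own dispersion.

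The differences were small in points of PSI. PSI was lower with SAM68 in 516 introns and higher in 396, and the median difference was −0.0515 points, against −0.0469 over all RI events. Left without control 1, 2 or 3 the median was −0.0252, −0.0264 or −0.0297 points, and without SAM68 3 it was −0.0797 points. The difference was within 1 point in 592 introns (64.8%). For 775 introns (84.9%, against 81.3% of all RI events) the whole interval lay within 10 points of 0. This share partly reflects low PSI. The 442 introns with a mean PSI under 1% and the 258 from 1% to 5% could not fall by 10 points. A difference of at least 10 points was seen in 36 introns (3.94%, against 5.40% of all RI events), 19 of them higher. Their median was 18.3 reads, 33 had under 50 reads, and 27 were not canonical.

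The differences were smaller where there were more reads. Introns with 10 to 20 reads (69 introns) had a median absolute difference of 4.59 points and a median interval half-width of 13 points. From 100 to 500 reads (362 introns) these were 0.335 and 1.02 points, and from 500 reads on (137 introns) 0.0602 and 0.240 points. No intron with 100 or more reads differed by 10 points.

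**Figure D3:**
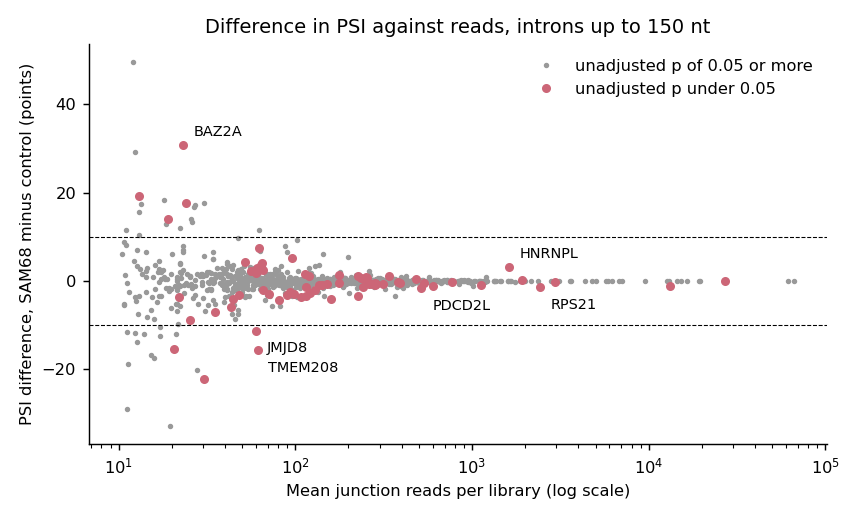
Difference in PSI, SAM68 minus control, in points (y axis) against the mean junction reads per library on a log scale (x axis), with 1 point for each intron up to 150 nt and dashed lines at 10 points either way. The 36 introns at or beyond the lines all have under 63 reads, and the 72 introns with an unadjusted p under 0.05 are in colour.

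RPS21, a protein of the small ribosomal subunit, had the lowest adjusted p of the short introns, at a difference under the limit of 10 points. Its last intron, 5 of 5 (92 nt), was at 3.59%, 4.22% and 3.87% in the controls and 2.88%, 2.53% and 2.28% with SAM68, from 144, 181 and 150 retained reads against 129, 93 and 90. All SAM68 libraries were below all controls. The means were 3.89% ± 0.319 and 2.56% ± 0.302 (SD, n = 3), and the difference of −1.33 points had an interval of −1.91 to −0.739 points (quasi-binomial test over all RI events, adjusted p = 0.0517). The adjusted p was 0.886 when limma was run on logit PSI, 0.792 with the intron's own dispersion, and 0.729 to 0.770 in the quasi-binomial test with any 1 library left out. In the other direction, the quasi-binomial test gave 0.0396 at a mean of at least 20 reads. The likelihood ratio test on pooled reads, which ignores the spread between libraries, gave 3.93e-06. The junction reads of RPS21 itself had a log2 fold change of −0.09 (limma, adjusted p = 0.373).

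PDCD2L, a relative of the ribosome assembly factor PDCD2, had intron 2 of 6 (114 nt) at 2.09%, 3.67% and 1.93% in the controls and 1.13%, 0.799% and 0.873% with SAM68. The groups did not overlap, and the interval of the difference was −2.50 to −0.652 points (quasi-binomial test, adjusted p = 0.211). CDCA5 (sororin, of sister chromatid cohesion) had intron 3 of 5 at 0.757%, 0.517% and 0.629% in the controls, from 3, 2 and 3 retained reads. It had none among 945 SAM68 reads, which allows up to 0.317%, and did not pass the test (quasi-binomial, adjusted p = 0.511). NUDT5, a hydrolase of ADP-sugars, had intron 8 of 9 at 6.57%, 7.11% and 6.97% in the controls and 5.72%, 1.60% and 3.00% with SAM68 (quasi-binomial test, adjusted p = 0.529).

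The other 2 of the 6 lowest p-values with SAM68 lower belonged to less read introns. JMJD8, which encodes a JmjC domain protein, had intron 5 of 8 (88 nt) at 28.2%, 16.4% and 17.7% in the controls and 9.36%, 10.5% and 8.75% with SAM68. No library of one group lay among those of the other, and the interval of the difference was −18.8 to −2.78 points (quasi-binomial test, adjusted p = 0.529). TMEM208, a membrane protein of the endoplasmic reticulum, had an intron of 139 nt, annotated in a noncoding transcript, at 93.1%, 100% and 93.7% in the controls and 82.0%, 83.9% and 74.1% with SAM68. This rests on 2, 0 and 2 spliced reads against 8, 5 and 7, the groups did not overlap, and the interval was −25.8 to −4.02 points (quasi-binomial test, adjusted p = 0.511).

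Of the 6 introns with the lowest p-values and SAM68 higher, that of HNRNPL had by far the most reads. HNRNPL encodes a splicing factor that binds CA-rich RNA, and its intron 7 of 12 (111 nt) keeps the reading frame. PSI was 19.9%, 21.2% and 22% in the controls and 24.7%, 21.4% and 26.4% with SAM68, from 493 to 683 retained reads per library. SAM68 2 lay within the range of the controls, and the difference of 3.17 points had an interval of 1.12 to 5.32 points (quasi-binomial test, adjusted p = 0.511). Without SAM68 3 the difference was 2.06 points, and without SAM68 2 it was 4.56 points.

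The other 5 had few retained reads. MAD2L2 (REV7, of DNA damage tolerance) had 0 retained reads among 1477 in the controls, which allows up to 0.203%, and 2, 5 and 2 with SAM68, a PSI of 0.210%, 0.679% and 0.284%. SGSM3, which overlaps another gene on the same strand, had 0 among 210 (up to 1.43%) and then 2, 1 and 5. FBXO27, an F-box protein, had 0 among 890 (up to 0.337%) and then 5, 0 and 2. GTPBP3, a mitochondrial tRNA-modifying enzyme, had 0, 1 and 0 against 4, 3 and 3, and the zinc finger gene ZNF276 had 1, 0 and 0 against 4, 3 and 2 in its intron of 76 nt. None passed the test (quasi-binomial, adjusted p = 0.511 to 0.532).

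**Figure D4:**
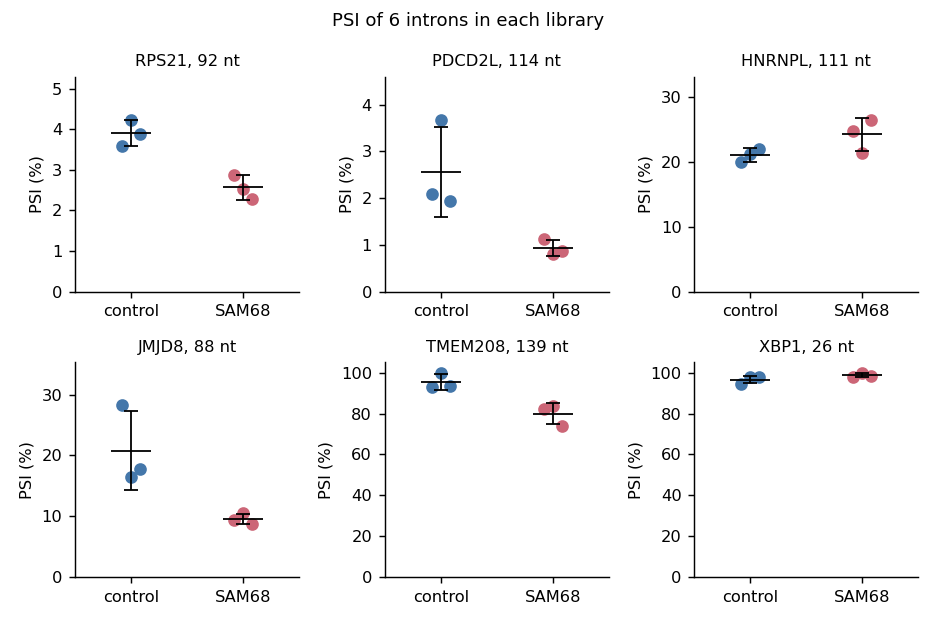
PSI in percent (y axis) in the control and SAM68 libraries (x axis) for the introns of RPS21, PDCD2L, HNRNPL, JMJD8, TMEM208 and XBP1. Points are libraries and bars are the mean with SD over 3 libraries, and the groups overlap for HNRNPL and are apart for the other 5.

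Grouped by host gene, no list had a called intron. The lists are by gene symbol, and the median PSI over all short introns (1.08%), their median difference (−0.0515 points) and their 516 lower and 396 higher introns serve for comparison. The 36 introns of splicing and RNA-binding factors, in 22 genes, had a median PSI of 0.963%, with 23 lower and 13 higher with SAM68 and a median difference of −0.0841 points. At an unadjusted p under 0.05 there were 5 of them, against 72 of all 913 short introns (7.89%). In PTBP1, a splicing repressor, intron 4 of 14 was at 0.0828% ± 0.104 in control and 0.0590% ± 0.0649 with SAM68 (SD, n = 3).

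The 17 introns of cytosolic ribosomal proteins had a median PSI of 0.140%, a median of 6835 reads, and 9 lower against 8 higher. Among them 4 were over 50%. The 3 introns of mitochondrial ribosomal proteins (2 lower, 1 higher) included MRPL4 at 0.339% ± 0.105 in control and 0.0831% ± 0.0719 with SAM68, and MRPL2 with 1 retained read in each control and 0 among 1380 reads with SAM68, which allows up to 0.217%. The 14 introns of translation factors had a median of 0.131%, with 10 lower and 4 higher.

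The remaining lists were smaller. The 9 introns of proteasome and ubiquitin genes had a median of 0.218% (6 lower, 3 higher), with the proteasome subunits PSMD8 at 0.0745% and 0.0676% and PSMC4 at 0.155% and 0.268% in control and SAM68. The 10 introns of cytoskeleton and adhesion genes had a median of 0.305% (7 lower, 3 higher), and ACTG1 (γ-actin) had 3 retained reads, all in control 1. The 10 introns of aminoacyl-tRNA synthetases, in 4 genes, had a median of 0.389% (3 lower, 7 higher). NARS had 0 retained reads in the controls and 1, 2 and 0 with SAM68, and MARS was at 0.402% and 0.423%.

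The 5 introns of glycolysis and central metabolism (GAPDH, IDH3B and PDHB) had a median of 0.0602% (4 lower, 1 higher), and IDH3B had 1 retained read, in control 1. The 4 of oxidative phosphorylation had a median of 0.273% (2 lower, 2 higher), with UQCRC1 at 0.0205% and 0.0685% and NDUFS7 at 0.292% and 0.437%. Of the 3 introns of RNA polymerase subunits (1 lower, 2 higher), that of POLR3C lies within a coding exon of the canonical transcript and was at 55.0%, 54.7% and 67.5% in the controls and 70.5%, 61.7% and 72.6% with SAM68. The groups overlapped, and the interval was −2.17 to 20.2 points. That of POLR1C had 1 retained read, in control 1.

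Junction reads of the host genes changed little. Of the 672 host genes 632 could be tested, and limma called 0 of them at an adjusted p under 0.05 and a 2-fold change, against 5 of all 9872 genes (0.0506%). Among the named host genes, SNHG5 had a log2 fold change of −0.213, under the 2-fold limit (limma, adjusted p = 0.0237). At an unadjusted p under 0.05 there were 80 host genes (12.7%), against 11.9% of all genes. The log2 fold change was within 0.5 in 620 host genes, with a median of −0.0019 against −0.0335 over all genes.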

How the data were processed

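Paired reads had been cleaned with fastp 0.20.0 and aligned to GRCh38 with HISAT2 2.1.0, as the study's methods and the submitters' processing notes state, and rMATS was run on 3 against 3 libraries. The authors deposited, for each of 5 event types, raw junction read counts of both forms as lists of 3 values per group, effective lengths and inclusion levels as a fraction, and the p-value, FDR and difference of their own comparison, which were not used. Which list belongs to which group was read from the study's plots, since these name the libraries.

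PSI was computed from the deposited counts and effective lengths and averaged over libraries with reads. RI events that averaged 10 reads or more entered a quasi-binomial model with the group as its term. Dispersions were moderated with squeezeVar of limma 3.58.1 (R 4.3.3, prior df 27.05, median 1.555, never below 1), and p-values adjusted by Benjamini-Hochberg over 2591 RI events. The 95% interval of a difference adds 1 read to each form. P-values measure the spread between these libraries only. Host genes were read from the deepest skipped exon event of each gene and tested with limma on log2(rpm + 0.5). Permutation tests went through every arrangement of the libraries, and the t quantile of the intervals came from scipy 1.17.1. Introns were matched to GENCODE 44, where 2589 of 2591 gene identifiers were found. In simulated data with 200 of 2591 RI events shifted by 30 points, the quasi-binomial test called 68.5% of the shifted events and 0 of the others. The simulated shift was in shares of reads without the correction for length, and every event had the same spread between libraries. The median absolute difference of the short introns was 0.516 points, so the 68.5% does not hold for differences of that size.

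The introns and gene lists were chosen with earlier results of these data known. Named introns were those called, the 6 lowest p-values in each direction at a mean of at least 50 reads, the 6 most read, the 6 highest in PSI at 50 reads and the 4 shortest (each with 1 intron per gene), those of U12 type, the 2 most read of each list, and 4 that keep the frame at a PSI over 10%. Of the canonical introns over 50%, AL162258.1, MRPL52 and STAG3L5P-PVRIG2P-PILRB were named after their values were seen. Of the 6 introns called by the likelihood ratio test, 1 is not reported here.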

Additional observations from a re-analysis of the deposited data

How the results depend on the processing

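The count of called short introns was 0 under every alternative run except a likelihood ratio test on pooled counts, which ignores the spread between libraries and called 6 (2 of them lower), against 0.965% of all RI events. Of these, 5 were JMJD8, TMEM208, IFT88, BAZ2A and the ZNF276 intron of 95 nt, the last 3 named after their values were seen. The adjusted p of RPS21 ranged from 3.93e-06 (likelihood ratio test) and 0.0396 (mean of at least 20 reads) to 0.886 (limma on the logit of PSI), at a difference under the limit of 10 points. The count at an unadjusted p under 0.05 ranged from 20 to 168. The median difference in PSI ranged from −0.0877 (without effective lengths) to −0.0252 points. The difference in median PSI kept its direction, at −0.223 to −0.137 points with each library left out, −0.315 without effective lengths, −0.0932 at a mean of at least 50 reads, −0.0887 from summed reads and −0.0569 by the mean over introns. The lower median PSI of short than of longer introns changed with the setting. With short introns limited to 100 nt it was −0.243 points against introns over 150 and up to 500 nt and −0.261 against those over 500 nt. Without effective lengths it was −0.536 and −0.571 points. Against introns over 150 and up to 500 nt it was −0.00403 points at a mean of at least 20 reads, 0.00921 at 50 reads, 0.0566 for canonical introns alone (chosen after seeing the data) and 0.0152 from summed reads. Against over 500 nt it was −0.0514, 0.00104 and 0.0306 points under the first 3 and −3.43 from summed reads. By the mean over introns, in place of the median, the differences were −3.11 and −1.38 points. With each library left out it ranged from −0.190 to −0.136 and from −0.202 to −0.167 points, where 5 libraries allow no p under 0.0625. The causes were not tested. No paired analysis was possible because the columns carry no replicate numbers. Without SAM68 replicate 1, B2M has no value. Host genes called stayed at 0 in all alternatives run, a median of ratios scaling added after seeing the data included. The listed alternative with edgeR and its TMM scaling factors was not run, since each deposited cell holds a list of counts and not a single count.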

Other observations

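The introns and genes in this section, other than RPL8, were chosen after their values were seen. RPL8, a protein of the large ribosomal subunit, had an intron of 63 nt within a coding exon of the canonical transcript and a mean of 13174 reads. It had 0, 217 and 0 spliced reads in the controls and 227, 0 and 258 with SAM68, beside 11892 to 14556 retained reads, so that PSI was exactly 100% in 3 libraries and 97.7%, 97.7% and 96.9% in the others. Libraries with and without spliced reads occurred in both groups.

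RHOT2, a mitochondrial GTPase, had the most short introns (9). In 6 of them the mean PSI was between 0.0574% and 1.02%. Intron 10 of the canonical transcript (82 nt) was at 8.76% ± 4.50 in control and 7.59% ± 4.71 with SAM68 (SD, n = 3). An intron of 90 nt and an intron of 114 nt that belong to other transcripts alone were at 29.3% and 24.6%, and at 96.6% and 97.8%. The introns of its canonical transcript thus had a mean PSI of 0.0574% to 8.17%, and the higher levels belonged to introns of other transcripts.

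Of the 757 canonical introns 28 had a mean PSI over 10%, and 3 of them with more than 100 reads are given here. Intron 1 of 4 of MRPL52 (112 nt), a mitochondrial ribosomal protein, was at 52.4%, 64.2% and 53.2% in the controls and 67.6%, 44.3% and 68.0% with SAM68. Intron 7 of 12 of CDK10 (71 nt), a kinase, was at 23.4% ± 2.22 and 21.7% ± 1.60. Intron 29 of 32 of TDRD12 (82 nt), a Tudor domain protein, was at 11.8% ± 1.97 and 10.5% ± 1.29. The intervals of these 3 differences were −8.40 to 14.3, −7.70 to 4.84 and −3.99 to 1.57 points.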
